A study of Mus musculus with 9 samples.

Results

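Expression of 10 genes that mark immature and transitional B cells was examined in splenic B cell subsets of the mouse. The genes were Cd93, Myb, Cd24a, Vpreb1, Vpreb3, Igll1, Rag1, Rag2, Sox4 and Dntt, chosen by symbol from a table of 24459 gene rows, and all 10 were found, each on 1 row. RNA-seq had been done on 9 libraries, 3 each of follicular (FO) B cells, IgD low B cells (BDL) and marginal zone (MZ) B cells. All cells came from spleens of untreated mice 8 to 10 weeks old, with 5 mice pooled for each sort, so that the spread given is one between pools of mice. FO B cells and BDL were both sorted as B220+, IgM intermediate, CD21 intermediate, CD23+ and CD93-, and differed in having high IgD (FO) or low IgD (BDL), whereas MZ B cells were sorted as B220+, IgM high, CD21 high, CD23- and CD93-. The labels give the strain as C57/BL6 with no allele or agent, the paper names B10.PL for these mice and the conflict was left as it stands. Each of 3 dates gave 1 library of each subset, and libraries with the same replicate number share a date. Levels are FPKM, fragments per kilobase of transcript after scaling to the mapped total, and are given below for replicates 1, 2 and 3 in that order, with means ± SD (n = 3).

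B cells arise in the bone marrow, where the recombinase Rag1 and Rag2 and the terminal transferase Dntt assemble the immunoglobulin genes, and where the surrogate light chain of Vpreb1 and Igll1 lets a new heavy chain reach the cell surface. Newly formed B cells then enter the spleen as transitional cells, which carry CD93 (recognised by the AA4.1 antibody) and much CD24, and lose CD93 as they mature into FO or MZ B cells. The transcription factors Myb and Sox4 are needed for early B cell development and are low in resting mature cells. As all subsets here were sorted as CD93-, the comparisons ask how much RNA of these genes was left in cells that the sort counts as mature.

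In a limma fit on log2(FPKM + 0.1) over all 9 libraries, 5 of the 10 genes passed the minimum mean of 0.5 FPKM: Cd93, Myb, Sox4, Cd24a and Vpreb3. A gene was called at a Benjamini-Hochberg adjusted p under 0.05 and a change of at least 2-fold. Between BDL and FO B cells, 3 of these 5 were called higher in BDL (Cd93, Myb and Sox4) and 0 lower, where 1.64% of the 11597 rows tested were called higher and 0.267% lower. Between MZ and FO B cells, 3 were called lower in MZ B cells (Cd93, Sox4 and Vpreb3), where 3.39% of all rows were called lower, and 0 were called higher, where 5.54% were. Between BDL and MZ B cells, 4 were called higher in BDL (Cd93, Myb, Sox4 and Vpreb3), where 3.47% of all rows were called higher, and 0 lower, where 4.34% were. The median log2 difference of the 5 genes was 1.67 for BDL minus FO, -1.35 for MZ minus FO and 2.55 for BDL minus MZ, beside 0.05, -0.01 and 0.06 over all rows tested. The 3 comparisons share libraries, so they are not independent of each other.

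**Figure D1:**
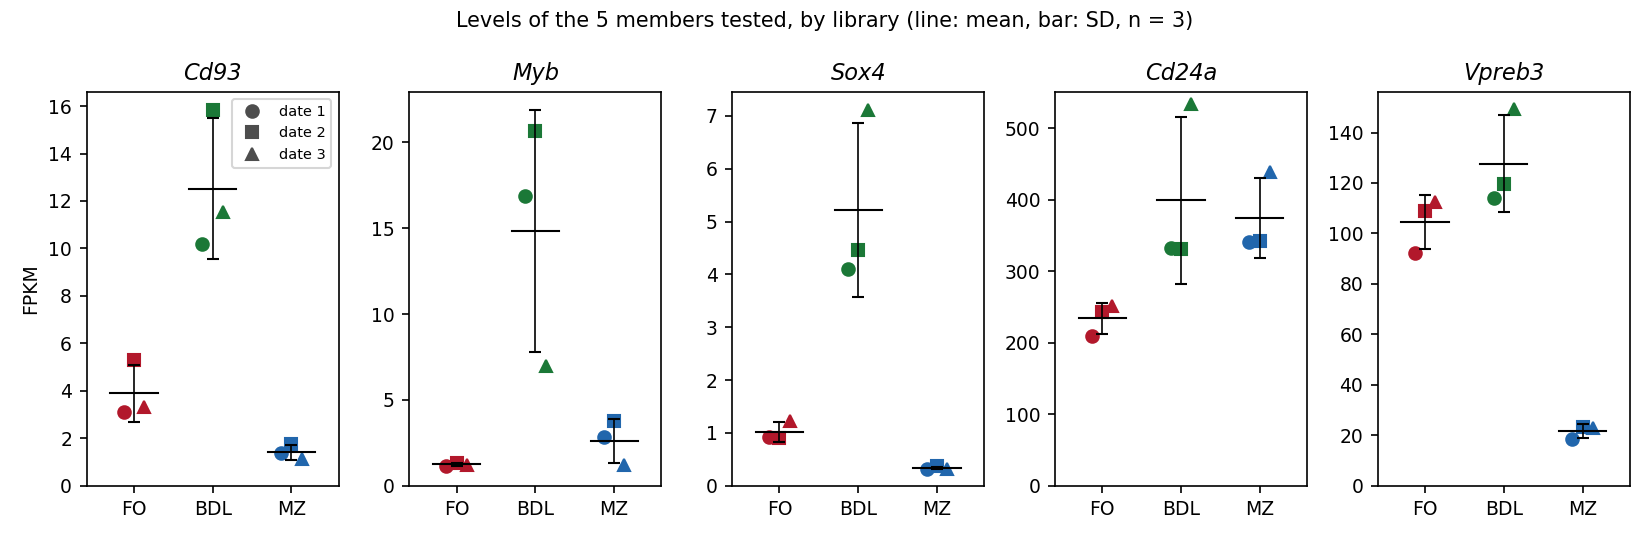
Levels in FPKM (vertical axis, linear from 0, a scale for each gene) of the 5 genes tested in FO B cells, BDL and MZ B cells, with 1 point per library shaped by date, a line at the mean and a bar of 1 SD (n = 3). BDL libraries lie above both other subsets for Cd93, Myb and Sox4, MZ libraries lie below both others for Cd93, Sox4 and Vpreb3, and Myb is at 6.99 FPKM in the date 3 BDL library against 16.9 and 20.7 in the other two.

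Cd93, the membrane glycoprotein whose antibody defines the CD93- gate, lies on the minus strand of chromosome 2 at 148262376 to 148269299 (NCBIM37, the build also called mm9), where no other annotated gene overlaps it. Its level was 3.10, 5.29 and 3.32 FPKM in FO B cells, 10.2, 15.9 and 11.5 FPKM in BDL, and 1.36, 1.74 and 1.12 FPKM in MZ B cells. The 3 subsets did not overlap, with every BDL library above every FO library and every MZ library below, although all 9 had passed the same CD93- gate. By flow cytometry the paper also found surface CD93 highest on BDL among these subsets. It gives their refined phenotype as CD93 intermediate, and calls the rise in the surface proteins it checked marginal. Of all rows tested, 24.4% had every BDL library above every FO library and 22.5% had every MZ library below. Mean levels were 12.5 ± 2.96 FPKM in BDL, 3.90 ± 1.20 in FO and 1.41 ± 0.311 in MZ B cells. The log2 difference was 1.67 (SE 0.25) for BDL minus FO, a 3.19-fold higher level (limma, adjusted p = 0.00715). It was -1.39 (SE 0.25) for MZ minus FO (limma, adjusted p = 0.00411) and 3.06 (SE 0.25) for BDL minus MZ (limma, adjusted p = 6.6e-05). Each of these calls held in all 18 alternative settings, which included leaving out any library.

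The date 2 library had the highest Cd93 level in every subset. The ratio of BDL to FO B cells was nonetheless alike within each date, at 3.29, 3.0 and 3.47. Cd93 is also expressed by myeloid cells, and the summed level of the 7 myeloid markers found in the table, of 8 listed, was highest at date 2 as well, at 14.5 FPKM against 7.38 and 6.73 in FO B cells, 15 against 7.96 and 5.67 in BDL, and 22.6 against 12.0 and 11.8 in MZ B cells. The myeloid sums of FO B cells and BDL overlapped, and what part myeloid RNA had in the Cd93 level was not tested. The 5 endothelial markers, another cell type with CD93, were all under 1 FPKM in every library and summed to 0.247 to 0.394 FPKM in FO B cells, 0.416 to 0.523 in BDL and 0.805 to 1.04 in MZ B cells.

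Sox4, a transcription factor of the SRY-related HMG box family that supports the survival of progenitor B cells, lies on the minus strand of chromosome 13 at 29040788 to 29045582 (NCBIM37) and overlaps Gm17419 on the opposite strand. Its level was 0.923, 0.893 and 1.23 FPKM in FO B cells, 4.09, 4.46 and 7.11 FPKM in BDL, and 0.318, 0.364 and 0.318 FPKM in MZ B cells. The order of the subsets was the same as for Cd93, again with no overlap, and the MZ libraries were all below 0.5 FPKM. Of the rows tested, 24.4% had BDL above FO B cells without overlap and 22.5% had MZ B cells below. Means were 1.02 ± 0.187 FPKM in FO B cells, 5.22 ± 1.65 in BDL and 0.334 ± 0.0266 in MZ B cells. The log2 difference was 2.22 (SE 0.22) for BDL minus FO, a 4.67-fold higher level (limma, adjusted p = 0.00127), and was called in all 18 alternative settings. BDL minus MZ was 3.58 (SE 0.22, limma, adjusted p = 1.64e-05). MZ minus FO was -1.35 (SE 0.22, limma, adjusted p = 0.00244), and with 1 FPKM added in place of 0.1 it was -0.59 (adjusted p = 0.0309, the highest of a range from 0.000518 over the alternatives), less than 2-fold and so not called. Within dates, BDL exceeded FO B cells 4.44-, 5.0- and 5.78-fold.

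Myb, the transcription factor c-Myb of progenitor cells, lies on the minus strand of chromosome 10 at 20844736 to 20880790 (NCBIM37) and overlaps Gm16786 on the opposite strand. Its level was 1.16, 1.31 and 1.23 FPKM in FO B cells, 16.9, 20.7 and 6.99 FPKM in BDL, and 2.85, 3.75 and 1.23 FPKM in MZ B cells. FO B cells were thus low and even between libraries, whereas BDL and MZ B cells both had their lowest level at date 3. Means were 1.24 ± 0.0749 FPKM in FO B cells, 14.8 ± 7.06 in BDL and 2.61 ± 1.28 in MZ B cells. The log2 difference for BDL minus FO was 3.35 (SE 0.47), a 10.2-fold higher level and the largest of the 5 genes (limma, adjusted p = 0.00549), and without BDL replicate 3 it was 3.81. BDL minus MZ was 2.46 (SE 0.47, limma, adjusted p = 0.00576), and both differences were called in all 18 alternative settings. MZ and FO B cells overlapped, with MZ replicate 3 level with the FO libraries, and MZ minus FO was 0.89 (95% interval -0.19 to 1.97, limma, adjusted p = 0.21), not called in any setting. It rested on single libraries, at 0.57 without MZ replicate 2 and 1.34 without MZ replicate 3.

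Within dates the Myb level of BDL was 5.91, 5.51 and 5.70 times that of MZ B cells, whereas it was 14.5, 15.7 and 5.68 times that of FO B cells. The drop at date 3 was therefore shared by BDL and MZ B cells in nearly the same proportion and absent from FO B cells. BDL replicate 3 stood apart from the other libraries in a principal component analysis of all rows tested, at -79.8 on the second component (17.3% of the variance), where the other 8 lay between -28.1 and 38.8. Sox4, Cd24a and Vpreb3 were highest, not lowest, in that library. What part the date had in the Myb level was not tested.

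**Figure D2:**
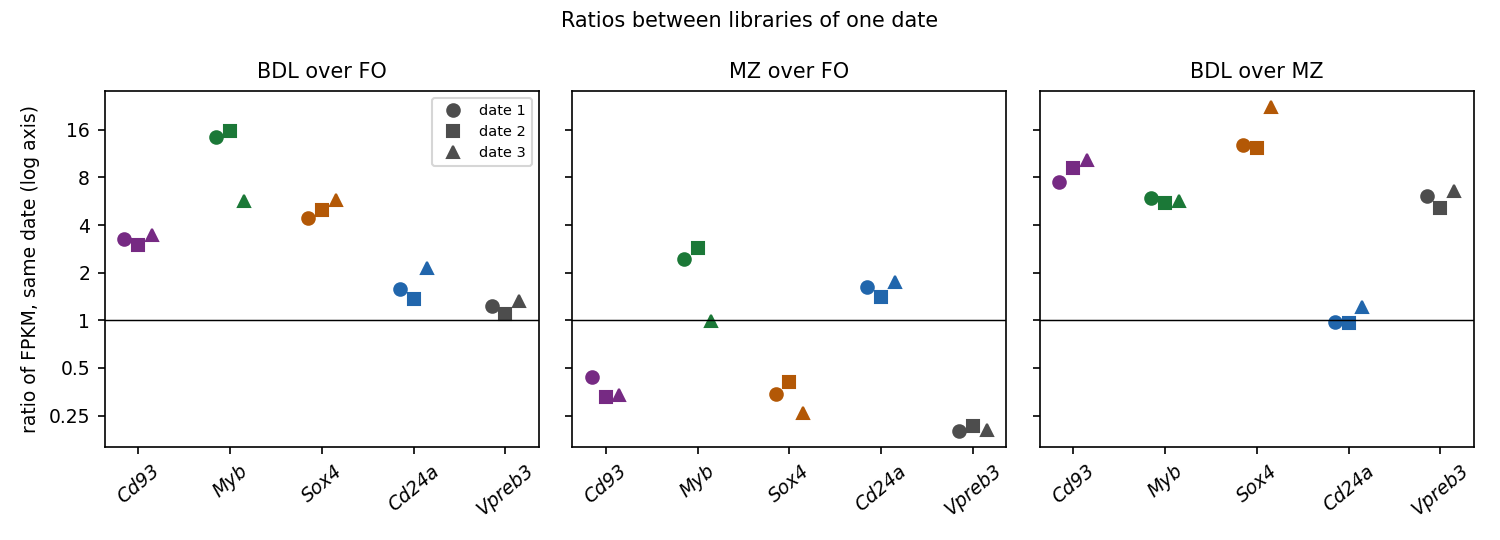
Ratio of FPKM between libraries of the same date (vertical axis, log scale) for the 5 genes, with 1 point per date and 1 panel for each pair of subsets. The BDL over MZ ratios of Myb lie together at 5.51 to 5.91, while its BDL over FO and MZ over FO ratios are lowest at date 3, and Cd24a lies near 1 in BDL over MZ.

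The 250 bases before the annotated start of Sox4 and Myb, the members called higher in BDL for which a promoter sequence was at hand, are shown to place these genes. They were taken from RefSeq (GRCm38.p6, a later build than that of the table), which gave a promoter for 8 of the 10 genes, not for Cd93 and Cd24a. Both are printed 5′ to 3′ on the strand of the gene, Sox4 from chr13:28953700-28953949 and Myb from chr10:21160985-21161234. Capitals mark matches, on either strand, to the letters CCAAT, which NF-Y binds, or to CAGCTG, a form of the E-box bound by E proteins.
Sox4: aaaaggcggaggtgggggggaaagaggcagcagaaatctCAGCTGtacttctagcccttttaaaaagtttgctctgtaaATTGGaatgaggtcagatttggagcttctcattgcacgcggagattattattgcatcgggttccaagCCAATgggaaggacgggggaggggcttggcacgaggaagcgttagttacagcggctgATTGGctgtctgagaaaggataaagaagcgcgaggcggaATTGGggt
Myb: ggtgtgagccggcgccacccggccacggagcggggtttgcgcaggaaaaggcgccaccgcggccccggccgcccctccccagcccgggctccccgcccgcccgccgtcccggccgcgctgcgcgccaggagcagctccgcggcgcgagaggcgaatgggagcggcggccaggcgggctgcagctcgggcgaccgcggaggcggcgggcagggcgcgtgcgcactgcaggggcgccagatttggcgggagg
The Sox4 sequence held 4 CCAAT matches (33.8% of 32851 mouse promoters hold at least 1) and 1 CAGCTG match (13% of promoters). The Myb sequence held no match to any of the 5 motifs searched on both strands (the octamer ATTTGCAT, the EBF motif CCCNNGGG, the E-boxes CAGCTG or CAGGTG, and the CCAAT box), but was 81.2% G or C with 40 CpG, against a median of 52.4% and 6 CpG over all promoters. The motifs were chosen after the sequences had been seen, and a match is a description of the letters only.

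Cd24a, which encodes the glycosylphosphatidylinositol-anchored CD24 (heat stable antigen) that is highest on immature B cells, lies on the plus strand of chromosome 10 at 43298975 to 43304068 (NCBIM37). It was the most abundant of the 10 genes, at 209, 242 and 251 FPKM in FO B cells, 333, 332 and 534 FPKM in BDL, and 341, 343 and 439 FPKM in MZ B cells. Both BDL and MZ B cells lay above FO B cells without overlap, and date 3 gave the highest level in every subset. Means were 234 ± 21.9 FPKM in FO B cells, 399 ± 117 in BDL and 374 ± 56.0 in MZ B cells. Such a separation was common: beside the 24.4% of rows with BDL above FO B cells, 23.6% had every MZ library above every FO library. BDL minus FO was 0.74 (SE 0.20, limma, adjusted p = 0.0674), with an adjusted p of 0.0147 with the date as a block (range over the alternatives 0.0147 to 0.216), and MZ minus FO was 0.67 (SE 0.20, limma, adjusted p = 0.0421). Neither reached 2-fold, so neither was called. BDL and MZ B cells could not be told apart, with a log2 difference of 0.07 (95% interval -0.40 to 0.54, limma, adjusted p = 0.841).

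The surrogate light chain genes Vpreb1 and Igll1 did not pass the minimum in these libraries, whereas Vpreb3, a gene related to Vpreb1, did. Vpreb3 encodes a protein that binds free immunoglobulin chains inside the cell. It lies on the plus strand of chromosome 10 at 75405802 to 75412402 (NCBIM37) and overlaps Gm16221. Its level was 92.2, 109 and 112 FPKM in FO B cells, 114, 119 and 150 FPKM in BDL, and 18.6, 23.4 and 22.9 FPKM in MZ B cells. MZ B cells (21.6 ± 2.67 FPKM) were far below FO B cells (104 ± 10.7) and BDL (128 ± 19.1). The log2 difference was -2.27 (SE 0.14) for MZ minus FO (limma, adjusted p = 1.44e-05) and 2.55 (SE 0.14) for BDL minus MZ (limma, adjusted p = 1.03e-05). BDL lay just above FO B cells without overlap, as in 24.4% of the rows tested. The difference of 0.28 (95% interval -0.04 to 0.61) did not pass (limma, adjusted p = 0.264), and it was 0.17 without BDL replicate 3.

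Vpreb1, the variable-like chain of the surrogate light chain of pre-B cells, was near the limit of detection. Its level was 0, 0.0584 and 0 FPKM in FO B cells, 0.0895, 0.147 and 0.138 FPKM in BDL, and 0.0760, 0.0653 and 0.279 FPKM in MZ B cells. From the size of 1 fragment in each library these levels stood for about 0, 3.11 and 0 fragments in FO B cells, 4.61, 8.45 and 9.30 in BDL, and 3.85, 3.92 and 14.0 in MZ B cells. All 6 BDL and MZ libraries lay above all 3 FO libraries, a separation that rests on a few fragments. Of the rows that passed the minimum, 24.4% had every BDL library and 23.6% every MZ library above every FO library. The share among rows as low as Vpreb1 was not counted. With no minimum level in the fit, neither BDL minus FO (0.94, limma, adjusted p = 0.167) nor MZ minus FO (0.93, limma, adjusted p = 0.0963) passed. Vpreb1 lies on the minus strand of chromosome 16 at 16868495 to 16870936 (NCBIM37), overlaps Top3b on the opposite strand, and has the near-identical copy Vpreb2, with which it may share fragments, so its level is uncertain. Vpreb2 was at 0 FPKM in all FO libraries, 0.0335 to 0.116 FPKM in BDL and 0.0381 to 0.233 FPKM in MZ B cells. Igll1, the constant-like chain known as lambda 5, lies on chromosome 16 at 16860764 to 16864078 (minus strand, NCBIM37) and was listed at 0 in all 9 libraries.

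The promoters of Vpreb3 and Vpreb1 are shown since these related genes differed widely in level. They are from RefSeq (GRCm38.p6), at chr10:75948050-75948299 on the plus strand and chr16:16869256-16869505 on the minus strand, printed 5′ to 3′ on the strand of the gene. Capitals mark the octamer ATTTGCAT, bound by Oct factors in B cell promoters, or the E-box CAGGTG.
Vpreb3: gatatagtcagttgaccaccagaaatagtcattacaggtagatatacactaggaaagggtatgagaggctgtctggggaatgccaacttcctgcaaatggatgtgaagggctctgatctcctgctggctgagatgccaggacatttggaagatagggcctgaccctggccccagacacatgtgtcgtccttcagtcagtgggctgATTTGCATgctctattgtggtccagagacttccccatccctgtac
Vpreb1: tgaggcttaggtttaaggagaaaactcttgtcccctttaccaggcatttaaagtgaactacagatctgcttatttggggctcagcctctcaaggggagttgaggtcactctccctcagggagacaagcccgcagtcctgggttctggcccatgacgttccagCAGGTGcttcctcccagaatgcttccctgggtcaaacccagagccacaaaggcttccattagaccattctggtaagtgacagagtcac
The octamer lay 45 to 38 bases before the start of Vpreb3, and 1.6% of all promoters held it. Vpreb1 held no octamer in this window but 1 CAGGTG, 88 to 83 bases before the start, as did 17.2% of promoters at any position.

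The recombination genes were at a few fragments per library. Rag1 was estimated at 0, 6.80 and 1.93 fragments in FO B cells, 2.88, 6.72 and 9.68 in BDL, and 0, 1.96 and 0.97 in MZ B cells, or at most 0.0201 FPKM. Rag2 was at 1.01, 2.04 and 1.01 fragments in FO B cells, 2.02, 1.01 and 4.07 in BDL, and 0, 1.03 and 0 in MZ B cells. Dntt, which adds bases at the joints, was at 1.07, 10.8 and 1.08 fragments in FO B cells, 0, 5.35 and 6.48 in BDL, and 0, 1.09 and 1.08 in MZ B cells. FO B cells and BDL overlapped for all 3 genes, and the highest FO value of Rag1 and of Dntt was in replicate 2. Every BDL library exceeded every MZ library in FPKM for Rag1 and Rag2, a separation that 22.6% of the rows tested also showed. Every MZ library was below every FO library for Rag2, as in 22.5% of the rows tested. Rag1 and Rag2 were not among the rows tested, so these shares are no base rate for genes this low. For each of these separations the exact permutation test gives its smallest two-sided p of 0.1 (n = 3 and 3). For Rag2 the nearest libraries were each at about 1 fragment, with 0.00472 FPKM in BDL, 0.00497 in FO B cells and 0.00462 in MZ B cells. With no minimum level in the fit, no comparison of Rag1, Rag2, Dntt or Vpreb1 was called. Every value of Rag1, Rag2 and Dntt was below the 0.1 FPKM added, so none of their differences could reach 2-fold. For these genes the lack of a call therefore carries no information. Rag1 and Rag2 lie next to each other on chromosome 2, at 101478439 to 101489658 (minus strand) and 101464875 to 101472685 (plus strand), and both overlap B230118H07Rik, while Dntt lies on chromosome 19 at 41103765 to 41134013 (plus strand, NCBIM37). A difference between subsets in these genes was not detectable at this depth.

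**Figure D3:**
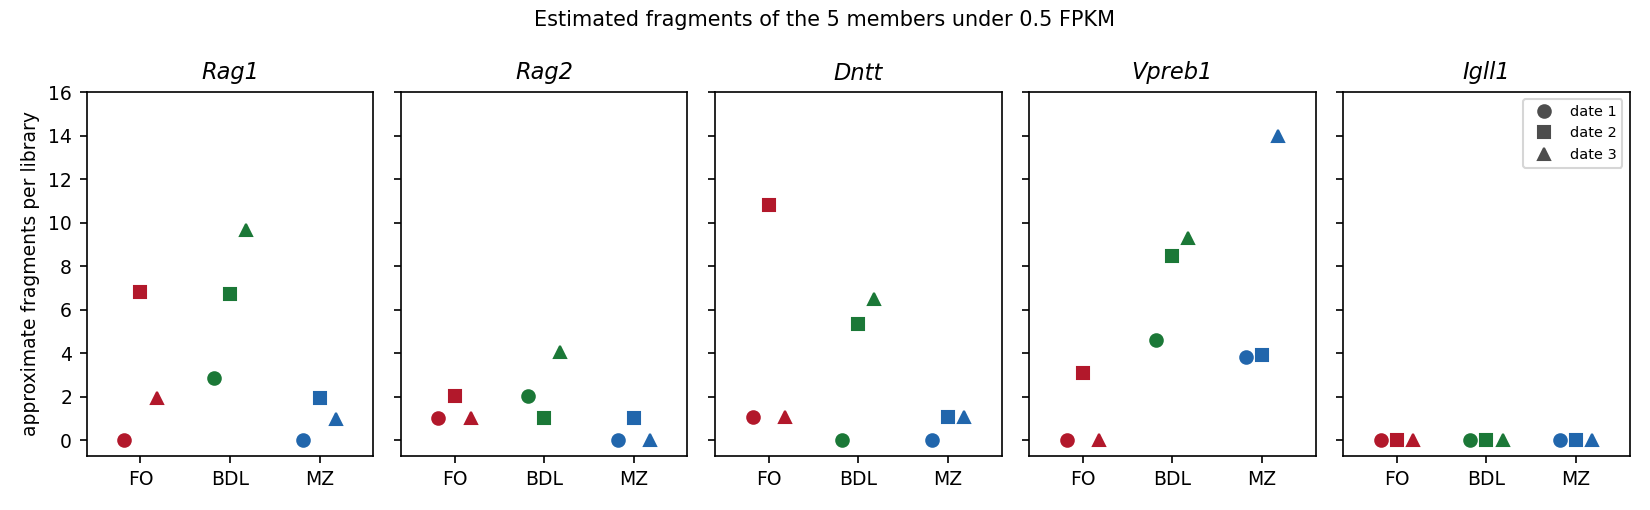
Approximate number of fragments per library (vertical axis, linear) for the 5 genes below 0.5 FPKM in FO B cells, BDL and MZ B cells, with 1 point per library shaped by date. No library passes 14.0 fragments, Igll1 is at 0 throughout, and the BDL and FO points overlap for Rag1, Rag2 and Dntt.

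Other genes of B cell precursors were compared in the same way. Of 23 such genes besides the 10 above, 16 were tested and 7 were under 1 FPKM in every library. In BDL 4 of the 16 were higher than in FO B cells: Lef1, a transcription factor of the Wnt pathway (log2 difference 2.53, limma, adjusted p = 0.00247), Bst1, the surface enzyme BP-3 (2.16), Cplx2, a complexin (2.13), and Spn, the sialoglycoprotein CD43 (1.21). With 1 FPKM added 3 of them were called, without Bst1, whose mean was 0.0782 FPKM in FO B cells and 0.699 FPKM in BDL. None of the 16 was called lower, and their median difference was 0.24, beside 0.05 over all rows. In MZ B cells Bst1 was higher than in FO B cells (4.62), and Lef1 (-1.93) and Spn (-1.38) were lower, though these 2 were not called with 1 FPKM added. Lef1 thus ran in the same order as Cd93 and Sox4, and Bst1 did not, as it was lower in BDL than in MZ B cells (-2.46, limma, adjusted p = 4.6e-05). Ebf1 and Pax5, which hold B cells to their lineage, were not called in any comparison (BDL minus FO -0.05 and 0.10). Of 12 factors that assist V(D)J recombination but also act on DNA in other cells, 0 were called in any of the 3 comparisons. Their median was 0.21 in BDL minus FO and 0.22 in MZ minus FO, and an adjusted p alone would have called 1 and 3 of them. Of 10 relatives and partners of the members 5 were tested and 0 were called in BDL against FO B cells (median -0.11). Among them Mybl2, a relative of Myb expressed in dividing cells, differed by 0.83 in BDL minus FO and was called higher in MZ than in FO B cells (1.84). Sox12, a relative of Sox4, differed by 0.24 in BDL minus FO and was called in MZ minus FO (-1.11), though not with 1 FPKM added, with a minimum of 1 FPKM or without FO replicate 3.

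Of 12 genes that mark the passage from transitional to mature B cells, 0 were called between BDL and FO B cells (median -0.20). Fcer2a, which encodes CD23, differed by -0.22 and the chemokine receptor Ccr7 by 0.13, while Cd55 differed by -0.61 (limma, adjusted p = 0.0273), less than 2-fold. Between MZ and FO B cells 5 of the 12 were called lower (median of the 12 -0.57), with Fcer2a at -4.06 and Cd55 at -2.45, and Cr2, which encodes CD21, was called higher (1.68). CD23 and CD21 were used for the sort, so their genes check the MZ gate and are no finding.

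For each of the 4 genes called against FO B cells, the 3 tested rows with the nearest pattern were those with the highest Pearson's r on log2(FPKM + 0.1) over the 9 libraries, a description that follows mainly the means of the 3 subsets. For Cd93 they were Csnk1e (r = 0.992), Lef1 (0.988) and Etv5 (0.986). For Sox4 they were Hdac9 (0.996), Ensa (0.988) and, again, Etv5 (0.988). For Vpreb3 they were Sbk1 (0.998), Myadm (0.995) and Map4k4 (0.995). For Myb no row came as near, with Slc12a4 (0.969), Eri3 (0.968) and Ly6c1 (0.966) ahead.

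**Figure D4:**
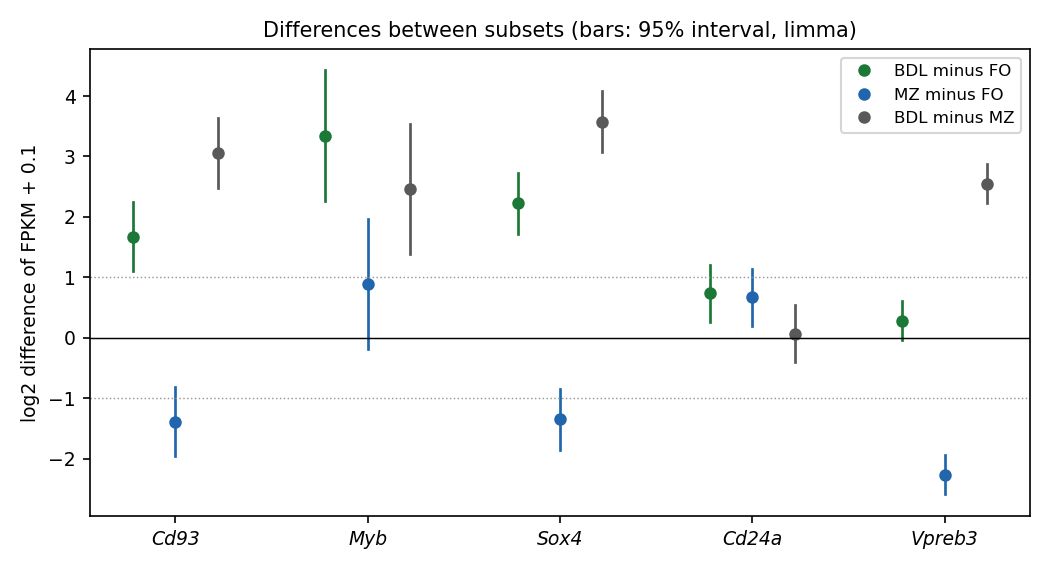
Log2 difference of FPKM + 0.1 (vertical axis) between subsets for the 5 genes tested, with points for the limma estimate, bars for its 95% interval and dotted lines at 2-fold. The BDL minus FO intervals of Cd93, Myb and Sox4 lie wholly above 1. That of Cd24a spans 1, and that of Vpreb3 lies wholly below 1 and spans 0. The BDL minus MZ interval of Cd24a spans 0.

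Markers of the sorted cells and of cells that could accompany them were set beside these values. Of 6 B cell identity genes 0 were called in any comparison, 5 of 6 MZ markers were called higher in MZ than in FO B cells, and 3 of 4 FO markers were called lower. Proliferation genes rose in BDL against FO B cells in 5 of 16 tested (2 with 1 FPKM added). Mki67 differed by 2.42 and Top2a by 1.96, and the list summed to 201 to 223 FPKM in BDL against 149 to 160 in FO B cells. In MZ against FO B cells 6 of 16 rose (4 with 1 FPKM added, Mki67 2.90). What part dividing cells had in the levels of the members was not tested. The 4 markers of B-1 cells were all called higher in BDL than in FO B cells (Zbtb32 2.02, Cd5 1.80, Bhlhe41 1.68, and Spn, also among the precursor genes above). They summed to 17 to 18.7 FPKM in BDL against 5.65 to 5.90 in FO and 6.87 to 8.16 in MZ B cells. Cd5 (1.65) and Bhlhe41 were also called higher in MZ than in FO B cells, and Spn (-1.38) lower, though none with 1 FPKM added. Zbtb32 (1.13) and Spn (2.59) were called higher in BDL than in MZ B cells, whereas Cd5 (0.16) and Bhlhe41 (0.68) were not. Erythroid markers summed to 8.49 to 9.68 FPKM in BDL against 2.56 to 6.15 in FO B cells, with Hbb-b1 called (1.94), and the T cell, NK cell and progenitor lists overlapped between BDL and FO B cells. Whether other B cells within the BDL gate carried the RNA of Cd93, Myb and Sox4 was not tested, and in sorted pools more cells with a transcript and more RNA per cell cannot be told apart.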

How the data were processed

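RNA-seq of 9 libraries of sorted splenic B cells was used. The authors mapped the reads with TopHat2 2.1.0 to mm9 and deposited FPKM made by Cufflinks, whose version and annotation are not given in the sources used here. The paper describes a stranded kit, and the labels single-end reads without strand, so overlapping genes may share fragments. The table holds no immunoglobulin heavy constant genes Ighd or Ighm. Column sums were 446033 to 517208, and no further scaling was done. A second deposited table, with the authors' own Cuffdiff fold changes and p-values, was not used.

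The 11597 of 24459 rows whose mean reached 0.5 FPKM were fitted as log2(FPKM + 0.1) in limma 3.58.1 (R 4.3.3, lmFit, contrasts.fit and trended eBayes). Subset was the sole term, and Benjamini-Hochberg adjustment ran over every row fitted. The added 0.1 understates changes of low genes. P-values rest on the spread between pools within subsets, with 3 pools per subset. For each row this spread is a shared estimate over all 9 libraries, moderated across rows. It is not that of the compared subsets alone. Single low values were compared by exact permutation. Simulated data with 200 of 11597 genes changed by 1.5 (log2, BDL minus FO) gave 85% recovered and 2 calls among unchanged genes.

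Read counts were not used here, and depth was estimated. The steps between low FPKM values of genes with 1 transcript of at least 3000 nt placed 65.0% to 75.0% of values within 0.1 of a whole fragment (20% by chance), with depths of 0.915 to 1.23 relative to FO replicate 1. Fragment numbers rest on this and on the longest transcript in GENCODE M1, are approximate and cover counting error only. Gene positions are from GENCODE M1 on NCBIM37, which held 87.3% of symbols.

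The title date of each library pairs the subsets. Deviations from the subset mean had r of 0.147, -0.0623 and 0.0491 between BDL and FO, 0.0238, 0.0077 and 0.0138 between MZ and FO, and 0.1, 0.182 and 0.244 between BDL and MZ on the 3 dates. The date is no term in the study's methods and served as a block in 1 alternative.

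The members, lists and tests were chosen with earlier results of these data known. Named were all 10 members, the 3 rows most alike in pattern to each member called against FO B cells, and from other lists the called genes with the largest change, at most 4 per list and comparison, with the most abundant gene of a marker list. Ebf1, Pax5, Vpreb2 and the maturation genes given between BDL and FO B cells were named after their values were seen. A few genes that meet the rule are not reported here. Alternatives were 0.01 or 1 added, no minimum or one of 1 FPKM, a fit on only 6 libraries, the date as a block, upper quartile scaling, no trend, an adjusted p alone, and each library left out. Plots used matplotlib 3.10.9 (Python 3.11.15).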

Additional observations from a re-analysis of the deposited data

How the results depend on the processing

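The calls of Cd93, Myb, Sox4 and Vpreb3 given above held in all 18 alternatives, except that Sox4 in MZ minus FO was no longer called with 1 added (-0.59). Cd24a in MZ minus FO was called by an adjusted p alone (0.67), and in BDL minus MZ it turned to -0.00945 with upper quartile scaling and to -0.16 without BDL replicate 3, with a range of -0.16 to 0.19 over the libraries left out in turn. With the date as a replicate block, 3, 3 and 4 members were called in BDL minus FO, MZ minus FO and BDL minus MZ, as without it, and no call of a member changed, while the rows called lower in BDL minus FO went from 31 to 49. That count was 16 with 1 added, 17 with 6 libraries, 17 without FO replicate 1 and 15 without FO replicate 3. Over all rows, 221 were called in BDL minus FO, against 94 with 1 added and 896 by an adjusted p alone. In MZ minus FO 1035 were called, against 674 and 3141, and in BDL minus MZ 905, against 3255 by an adjusted p alone. Depth limits Rag1, Rag2, Dntt, Vpreb1 and Igll1, for which a few fragments decide each value.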

Other observations

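Markers of germinal centre B cells and plasma cells, which are late rather than early stages, were also compared between BDL and FO B cells. In each list 1 of 4 genes tested was called higher in BDL and 0 lower, where 1.64% of all rows were called higher. The other genes tested in these lists, among them Fas (0.16), Mef2b (0.10), Xbp1 (-0.19) and Igj (0.65), were not called. Rgs13, a regulator of G protein signalling of germinal centre B cells, was higher in BDL by 3.85 on the log2 scale (limma, adjusted p = 0.000644). Its level was 0.172 to 0.268 FPKM in FO B cells, 3.42 to 6.37 in BDL and 0.0676 to 0.251 in MZ B cells. It thus passed the minimum mean of 0.5 FPKM only through BDL, so its being tested was not independent of the difference. Bcl6, the transcription factor of that stage, differed by -0.30 and was not called. Sdc1, the plasma cell surface proteoglycan CD138, was higher in BDL than in FO B cells by 2.42 (limma, adjusted p = 0.00147) and its MZ minus FO difference was -2.57, the order in which Cd93 and Sox4 also ran. Prdm1, the transcription factor of plasma cells, ran otherwise, at 0.76 in BDL minus FO (not called) and 2.89 in MZ minus FO.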
